A study of Mus musculus with 16 samples.

Results

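DNA replication genes are described here across a retinoic acid time course in mouse embryonic stem cells. The group holds 41 genes for the proteins that mark replication origins, open the DNA, copy it and supply its building blocks. They were chosen by gene symbol as known parts of the replication machinery, with earlier results of these data known. All 41 were found among the 24452 genes of the deposited table. Every one of them passed the filter on low values (at least 1 RPKM in at least 1 column), which kept 10860 genes. RPKM are read numbers divided by the length of the gene and by the reads of the library, so levels can be compared between genes.

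Cells labelled Suz12-KO were set against wild-type E14 cells (WT), an embryonic stem cell line. The Suz12 protein belongs to Polycomb repressive complex 2, a histone methyltransferase that keeps silent genes silent. Each line was taken at 0 h, in serum medium with leukaemia inhibitory factor (LIF, the cytokine that holds these cells undifferentiated), and after 24, 48 and 72 h without LIF in 1 µM all-trans retinoic acid, a signal made from vitamin A that makes them differentiate. The labels give 16 samples in 8 groups of 2, and the table gives 1 pooled column per group, so no spread between cultures can be computed. The labels do not say how the Suz12 mutation was made or how many clones the line stands for.

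Before a cell copies its DNA, the origin recognition complex (ORC) sits on origins and, with Cdc6 and Cdt1, loads the ring-shaped MCM helicase, a step called licensing. At the start of S phase Cdc45, the GINS complex and Mcm10 turn that ring into an active helicase. Primase and the DNA polymerases then copy the strands behind it, held on DNA by the sliding clamp PCNA, which the RFC complex loads. Many of these genes are known targets of E2F transcription factors, which drive entry into S phase, and embryonic stem cells cycle fast with a short G1 phase.

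The promoters of these genes are shown first, because many hold the letters an E2F protein can bind. RefSeq promoter windows (GRCm38.p6, 250 bases before to 50 bases after the start) were matched for 33 of the 41 genes. The E2F letters searched were TTTCCCGC, TTTCGCGC, TTTGCCGC and TTTGGCGC, on both strands. A gene was counted when any of its windows held the letters. They were found for 13 of the 33 genes, or 39.4%. The share was 27.0% of 63 other genes of the replication pathway, 4% of 25 mitosis genes, 5.13% of 7732 kept protein-coding genes and 2.6% of all 27025 genes with a window. Each line below gives 30 bases around the match nearest the start, 5′ to 3′ along the gene, with that match in capitals and the GRCm38.p6 position after it. A window can hold further matches that are left in lower case.
Cdc6: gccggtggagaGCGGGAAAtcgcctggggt, chr11:98908002-98908031, plus strand.
Cdt1: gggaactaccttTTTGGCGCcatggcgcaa, chr8:122568035-122568064, plus strand.
Gins3: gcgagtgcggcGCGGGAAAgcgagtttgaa, chr8:95633507-95633536, plus strand.
Lig1: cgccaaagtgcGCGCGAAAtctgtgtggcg, chr7:13278841-13278870, plus strand.
Mcm3: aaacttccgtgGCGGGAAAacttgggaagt, chr1:20820275-20820304, minus strand.
Mcm5: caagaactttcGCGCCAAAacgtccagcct, chr8:75109349-75109378, plus strand.
Mcm6: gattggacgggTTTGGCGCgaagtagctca, chr1:128359734-128359763, minus strand.
Mcm7: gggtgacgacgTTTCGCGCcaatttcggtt, chr5:138171849-138171878, minus strand.
Orc1: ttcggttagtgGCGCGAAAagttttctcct, chr4:108579416-108579445, plus strand.
Orc3: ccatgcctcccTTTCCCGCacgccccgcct, chr4:34614965-34614994, minus strand.
Pola1: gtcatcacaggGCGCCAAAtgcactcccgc, chrX:93632275-93632304, minus strand.
Pold1: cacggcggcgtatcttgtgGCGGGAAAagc, chr7:44548766-44548795, minus strand.
Rfc3: ctttcgcgctcGCGGGAAAactctactgtc, chr5:151651190-151651219, minus strand.
These matches began between 149 bases before the start (position -149) and 39 bases after it. In Mcm7 the letters overlap a CCAAT box. A match describes letters in a window and is not a measured binding site.

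The same windows were searched for the letters of 4 other factors. The CCAAT box, which the NF-Y factor binds, was found for 66.7% of the replication genes and 43.2% of the kept protein-coding genes. The Sp letters GGGCGG were in 72.7% and 73.3%. The CHR letters TTTGAA are known from genes of the G2 and M phases. They were found for 12.1% of the replication genes, 68% of the mitosis genes and 13.5% of the kept protein-coding genes. The NRF1 motif was found for none of the 33 genes, against 2.50% of the kept protein-coding genes. CpG-rich windows were defined by a GC content over 50% and an observed over expected CpG ratio over 0.6. At least 1 was found for 78.8% of the replication genes and 79.5% of the kept protein-coding ones. Of kept protein-coding genes with a CpG-rich window, 5.79% had the E2F letters in any window.

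**Figure D1:**
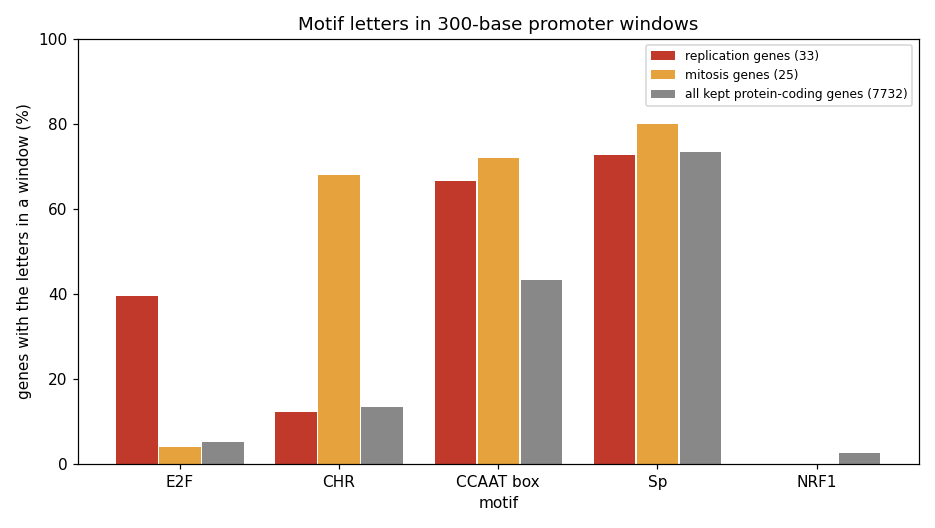
Share of genes (vertical axis, %) whose 300-base promoter window holds the letters of each motif (horizontal axis), for 33 replication genes, 25 mitosis genes and 7732 kept protein-coding genes. The E2F letters stand at 39.4% in replication genes and 4% in mitosis genes, and the CHR letters at 12.1% and 68%.

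Between 24731176 and 32153765 reads stood behind each column. A single non-coding gene, Gm42418, took 56.5% to 65.5% of them, most in both lines at 0 h. Such a share lowers the RPKM of all other genes. Each column was divided by a median-of-ratios factor, but these factors do not follow the Gm42418 share alone. Suz12-KO cells had shares of 56.5% and 56.6% at 24 and 72 h, with log2 factors of 0.25 and 0.16. What else enters the factors was not tested. Log2 differences below are of log2(scaled RPKM + 0.5), while printed levels are RPKM as deposited. On the deposited scale the median of all kept genes was higher at 72 h than at 0 h by 0.32 in Suz12-KO cells and by 0.50 in WT cells. As a check of the labels, Suz12 RNA was still read in the columns labelled Suz12-KO, at 2.59, 3.09, 2.38 and 1.35 RPKM at 0, 24, 48 and 72 h, against 2.94, 2.58, 1.26 and 0.995 RPKM in WT cells. No protein was measured. Hprt, a purine salvage enzyme, had 525 to 1182 reads in each Suz12-KO column and 0 to 3 in each WT column. An effect of Suz12 cannot be told apart from other differences between the 2 lines.

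On scaled values, replication genes fell together during the time course, in both lines. Averaged over both lines, limma called 10 of 41 lower at 24 h (12.1% of all kept genes were called lower), 25 at 48 h (23%) and 35 at 72 h (28.9%). It called 0 members higher at each of the 3 times, where 11.7%, 24% and 29.7% of all kept genes were called higher. At an unadjusted p under 0.05, limma had 1, 0 and 0 members higher at those times (19.3%, 27.8% and 32.1% of kept genes) and 16, 27 and 36 lower (19.2%, 27.2% and 31.3%). The median change of the 41 genes was -0.19 at 24 h, -0.42 at 48 h and -0.78 at 72 h, with medians over all kept genes of 0.01, -0.01 and 0.01. These 3 comparisons share the 0 h columns. Their p values rest on how alike the 2 lines changed, since no spread between cultures could be computed.

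The size of the fall depended on the scale, and before 72 h its direction did too. With RPKM as deposited, 16 members were called lower at 72 h (12.2% of kept genes) and 1, Rrm1, higher (46%), while 30 of the 35 genes named lower stayed below 0 and Mcm7, Rfc4, Rpa3, Fen1 and Tyms did not. With factors from well-read protein-coding genes, 24 members were called lower (18.9% of kept genes) and all 35 stayed below 0. At 24 h the deposited scale gave 7 members higher (37.2% of kept genes) and 1 lower (3.55%).

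Within each line, all 41 genes were lower at 72 h in Suz12-KO cells (36 as deposited, 38 with protein-coding factors), with a median change of -0.86. In WT cells 37 of 41 were lower (25 and 34 on those scales), with a median of -0.63. The medians over all kept genes were 0 and 0.01. At least 2-fold lower were 17 members in Suz12-KO cells (13.8% of kept genes) and 11 in WT cells (11.2%), with 0 members at least 2-fold higher in either line (16.7% and 16.2% of kept genes). As deposited the counts lower were 7 in Suz12-KO cells (7.89% of kept genes, members' median -0.45) and 1 in WT cells (5.09%, median -0.062), and with protein-coding factors 8 (9.81%) and 4 (7.31%). At 48 h 5 members were at least 2-fold lower in Suz12-KO cells (9.12% of kept genes) and 8 in WT cells (8.28%), with 0 higher (11.8% and 12.5%). Cdt1, Mcm10, Orc1, Pola1 and Rrm2 were among them in both lines, joined by Orc2, Orc5 and Rfc5 in WT cells. At 24 h 0 members were 2-fold lower, where 5.4% of kept genes were in Suz12-KO cells, against 3.78% in WT cells, and 0 were 2-fold higher, where 6.18% and 4.52% were. The authors' deposited table marks genes that differ between 72 and 0 h, and it marks 17 members in Suz12-KO cells, against 14 in WT cells. All of these were lower by scaled RPKM, where marked genes that were lower made up 14.2% and 12.2% of kept genes. The authors' deposited table marks 12 members in both lines (23.3% of kept genes), 5 in Suz12-KO cells alone (9.82%), 2 in WT cells alone (6.84%) and 22 in neither (60%).

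**Figure D2:**
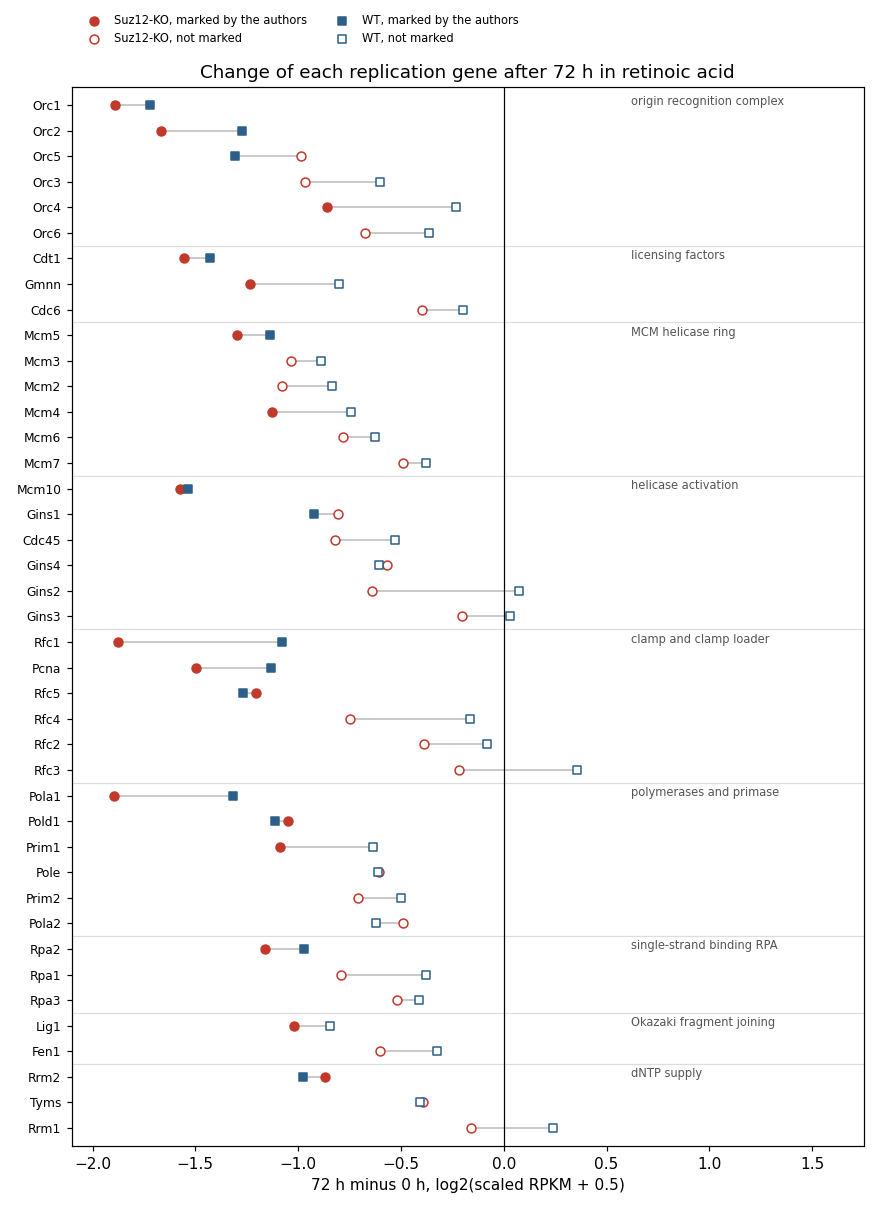
Change from 0 to 72 h (horizontal axis, log2 of scaled RPKM + 0.5) for each of the 41 genes (vertical axis, by role), in Suz12-KO cells (red circles) and WT cells (blue squares), filled where the authors marked the gene. Points run from -1.89 to -0.16 in Suz12-KO cells and from -1.72 to 0.36 in WT cells on this scale, and 5 and 16 of them lie above 0 as deposited.

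All 6 subunits of the origin recognition complex were called lower at 72 h. As deposited 3 of them (Orc1, Orc2 and Orc5) were called, and with protein-coding factors Orc3 as well. Orc1 (ENSMUSG00000028587, chromosome 4, 108579423 to 108614833) is the ATPase subunit whose protein is known to vary over the cell cycle. By the averaged log2 change it had the largest fall of all 41 genes. It stood at 8.19, 6.01, 4.08 and 2.55 RPKM in Suz12-KO cells at 0, 24, 48 and 72 h, against 7.96, 6.72, 4.65 and 3.35 RPKM in WT cells. Both lines were lower at each later time, and the 95% Poisson interval at 72 h was 2.22 to 2.90 in Suz12-KO cells and 2.99 to 3.75 in WT cells. Such intervals cover counting error only. Averaged over both lines the 72 h change was -1.81 (SE 0.104, limma adjusted p = 0.00014), a 3.50-fold fall. The first rank of Orc1 rests in part on the value added before the log was taken. Without that value the scaled log2 ratio of 72 over 0 h in Suz12-KO cells was -2.11 for Orc1. Pola1 (-2.86) and Rfc1 (-2.39) fell further there. In WT cells Orc1 still fell most, at -1.87, against -1.78 for Pola1. Orc2, Orc5 and Orc3, other subunits of the complex, fell by 1.47, 1.15 and 0.78 on the log2 scale. For Orc2, 29.8% of its exon bases are shared with Nif3l1 on the opposite strand, and the labels do not say whether the counting used strand.

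The 250 bases before the Orc1 start are shown because this gene fell most by the averaged log2 change, with the E2F letters in capitals.
Orc1 promoter, chr4:108579204-108579453, plus strand: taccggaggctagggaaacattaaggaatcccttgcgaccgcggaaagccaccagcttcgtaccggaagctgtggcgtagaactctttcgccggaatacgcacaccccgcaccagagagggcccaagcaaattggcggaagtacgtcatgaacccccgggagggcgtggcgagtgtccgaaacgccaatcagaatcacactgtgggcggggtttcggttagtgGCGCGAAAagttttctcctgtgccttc

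Orc6 (ENSMUSG00000031697, chromosome 8, 85299632 to 85308278), the small subunit outside the ATPase ring, was the most abundant of the complex on average. It stood at 15.0, 18.5, 17.2 and 12.4 RPKM in Suz12-KO cells, against 7.59, 11.4, 10.4 and 8.97 RPKM in WT cells. Suz12-KO cells were higher at all 4 times with intervals that did not meet, such as 13.9 to 16.2 against 6.79 to 8.46 at 0 h. Its 72 h change was -0.52 (SE 0.120, adjusted p = 0.0116), and was -0.02 (adjusted p = 0.921) as deposited. Orc4 was the least abundant gene of the complex in every column, from 0.573 to 1.15 RPKM in Suz12-KO cells and from 0.774 to 1.02 RPKM in WT cells. The ratio of the most to the least abundant subunit ran from 13.5 to 21.7 in Suz12-KO cells and from 9.56 to 18.0 in WT cells.

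Of the 3 licensing factors, Cdt1 and its inhibitor geminin fell and Cdc6 did not pass the test. Cdt1 (ENSMUSG00000006585, chromosome 8, 122568015 to 122573554), which brings the MCM ring to origins, stood at 17.3, 14.8, 10.9 and 7.52 RPKM in Suz12-KO cells, against 14.5, 10.8, 9.44 and 7.95 RPKM in WT cells. Both lines were lower at each later time. At 72 h the change was -1.49 (SE 0.111, adjusted p = 0.000262), and it had fallen by 0.80 at 24 h (adjusted p = 0.00823).
Gmnn (ENSMUSG00000006715, chromosome 13, 24751845 to 24761923) encodes geminin, which holds Cdt1 back after S phase has begun. It stood at 24.8, 25.1, 19.0 and 13.9 RPKM in Suz12-KO cells, against 15.6, 18.7, 18.0 and 13.6 RPKM in WT cells. The lines thus stood apart at 0 h and close together at 72 h. Its 72 h change was -1.02 (SE 0.147, adjusted p = 0.00208), and adjusted p = 0.0508 as deposited. Cdc6, the ATPase that joins ORC in loading, gave a 72 h change of -0.30 (adjusted p = 0.0743) and levels between 5.47 and 11.7 RPKM.

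The MCM ring had the highest summed RPKM of the complexes, and all 6 of its subunits fell by 72 h, of which Mcm2, Mcm3 and Mcm5 were called as deposited and all but Mcm7 with protein-coding factors. Mcm3, a ring subunit (ENSMUSG00000041859, chromosome 1, 20802968 to 20820312), was the most abundant of the 41 genes on average, at 67.7, 81.0, 63.8 and 43.9 RPKM in Suz12-KO cells, against 52.2, 59.5, 54.1 and 43.3 RPKM in WT cells. Its RPKM was highest at 24 h in both lines, but scaled RPKM was highest at 0 h. By 72 h it had changed by -0.96 (SE 0.112, adjusted p = 0.0010), a 1.95-fold fall.
Mcm5 (ENSMUSG00000005410, chromosome 8, 75109569 to 75128439) changed most within the ring. It stood at 64.9, 69.5, 51.3 and 35.0 RPKM in Suz12-KO cells, against 42.3, 44.5, 36.9 and 29.4 RPKM in WT cells. Suz12-KO cells were higher at all 4 times, yet the averaged difference between the lines (0.29, adjusted p = 0.0883) missed the threshold. Its change at 72 h was -1.22 (SE 0.109, adjusted p = 0.000455). Mcm2, Mcm4 and Mcm6 fell by 0.96, 0.94 and 0.71, and Mcm7, with a change of -0.43, moved least. Mcm4 was the least abundant subunit in all 8 columns, 3.99 to 5.42 times below Mcm3. Summed over the ring, RPKM stood at 292, 360, 286 and 199.9 in Suz12-KO cells, against 221, 264, 244 and 199 in WT cells.

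**Figure D3:**
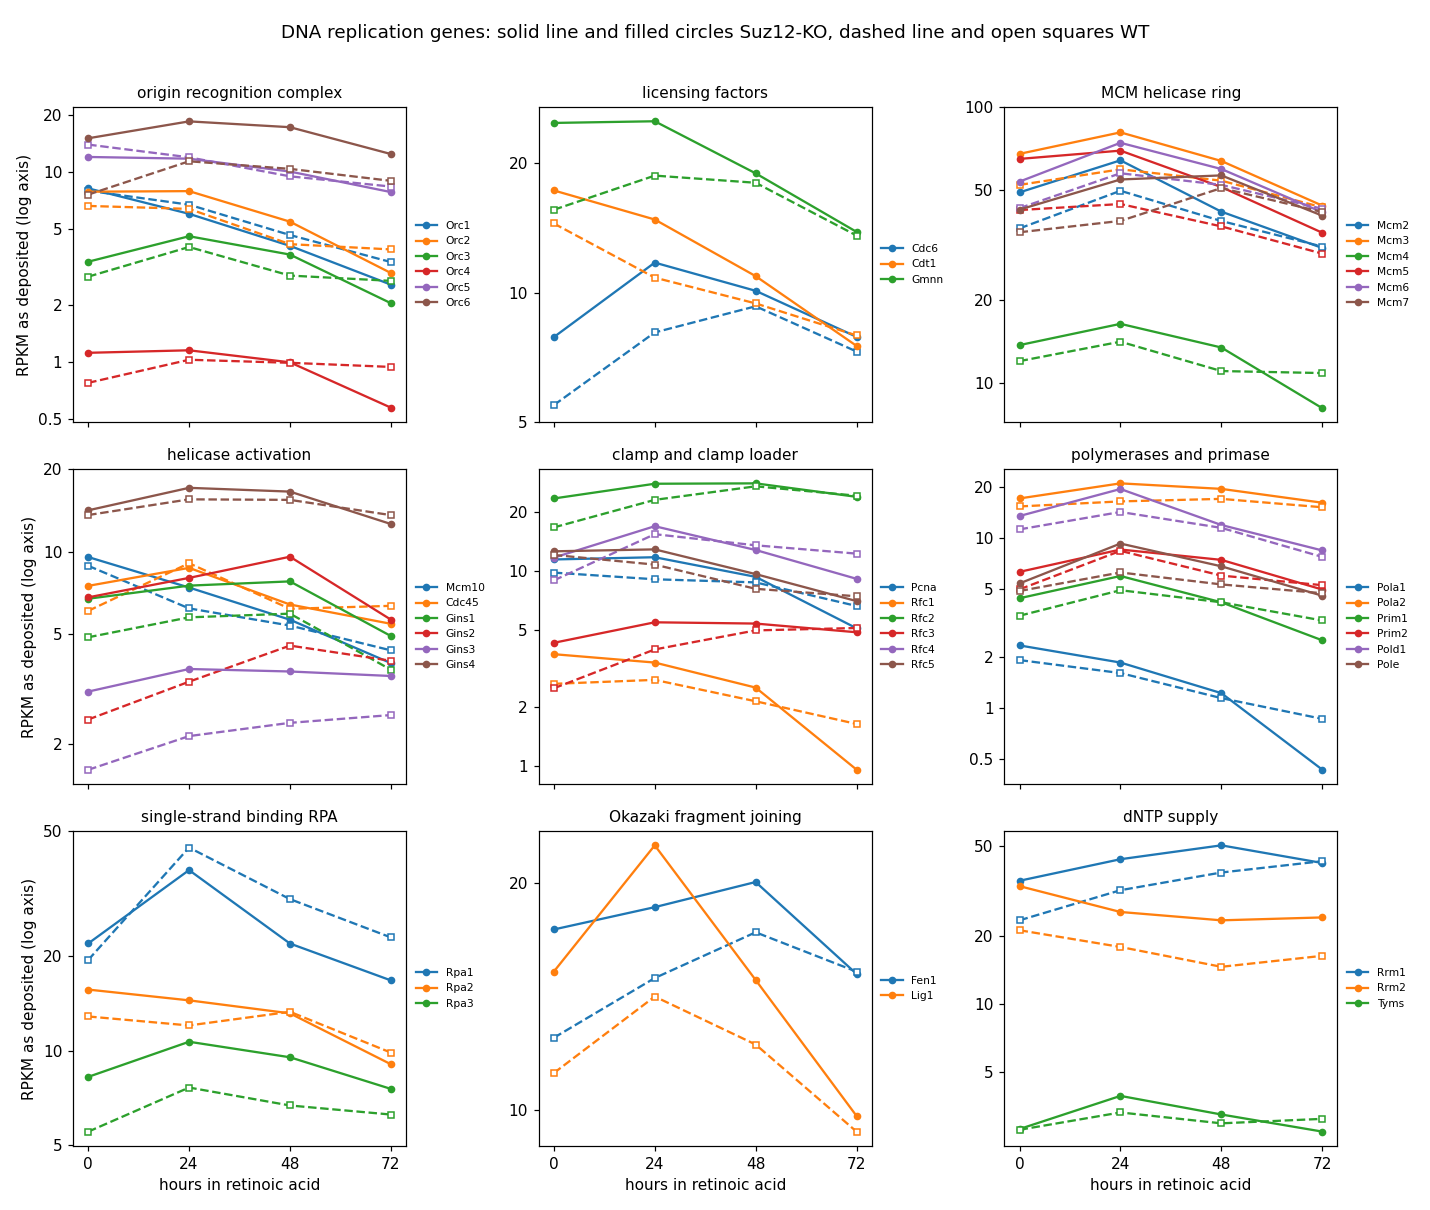
RPKM as deposited (vertical axis, log scale) of all 41 genes by role over hours in retinoic acid (horizontal axis), solid with filled circles for Suz12-KO cells and dashed with open squares for WT cells, 1 pooled column per point. Orc1, Cdt1, Mcm10 and Pola1 are lower at each later time in both lines, while Rrm1 and Rfc3 are higher at 72 h than at 0 h on this scale in both.

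Among the helicase activators, 4 of 6 genes fell (as deposited 2, Mcm10 and Gins1) and the GINS subunits Gins2 and Gins3 did not pass the test. Mcm10 (ENSMUSG00000026669, chromosome 2, 4989714 to 5012791), which helps start unwinding, stood at 9.56, 7.40, 5.65 and 3.93 RPKM in Suz12-KO cells, against 8.89, 6.22, 5.38 and 4.37 RPKM in WT cells. The lines lay close together throughout. Its 72 h change was -1.56 (SE 0.0988, adjusted p = 0.00018), with -0.89 at 24 h (adjusted p = 0.00511).
Gins4 (ENSMUSG00000031546, chromosome 8, 23226616 to 23237659) was the most abundant GINS subunit in each column, at 14.1, 17.1, 16.6 and 12.6 RPKM in Suz12-KO cells, against 13.6, 15.5, 15.4 and 13.6 RPKM in WT cells. The 2 lines overlapped in range. At 72 h it had changed by -0.59 (SE 0.0991, adjusted p = 0.00361), and -0.08 (adjusted p = 0.591) as deposited. Cdc45, which travels with the helicase, fell by 0.67 on the log2 scale and Gins1 by 0.86.

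Gins2 and Gins3 were the GINS subunits in which the lines differed. Gins2 (ENSMUSG00000031821, chromosome 8, 120578633 to 120589304) stood at 6.82, 8.03, 9.59 and 5.66 RPKM in Suz12-KO cells, against 2.45, 3.36, 4.55 and 4.01 RPKM in WT cells. The lowest Suz12-KO column lay above the highest WT column. Gse1 shares 67.3% of the Gins2 exon bases on the opposite strand and stood at 1.65, 6.31, 3.61 and 4.05 RPKM in Suz12-KO cells, against 1.38, 2.15, 2.27 and 3.41 RPKM in WT cells. Its part in the Gins2 difference was not tested. Gins3 (ENSMUSG00000031669, chromosome 8, 95633453 to 95645060) stood at 3.09, 3.74, 3.66 and 3.53 RPKM in Suz12-KO cells, against 1.61, 2.13, 2.38 and 2.54 RPKM in WT cells. Here too the ranges of the lines did not overlap. The 72 h changes were -0.28 for Gins2 (adjusted p = 0.211) and -0.09 for Gins3 (adjusted p = 0.521). Both turned positive as deposited (0.18 and 0.35), and Gins3 did so with protein-coding factors too (0.15).

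The sliding clamp and 3 of the 5 subunits of its loader fell, with the Rfc4 call lost on both other scales. Pcna, the clamp itself, was lower by 1.31 on average over the lines (SE 0.139, adjusted p = 0.00073). It was at 11.4, 11.7, 9.32 and 5.08 RPKM in Suz12-KO cells, against 9.79, 9.05, 8.73 and 6.61 RPKM in WT cells. Pseudogenes of Pcna are annotated and could take or give reads. Rfc1 (ENSMUSG00000029191, chromosome 5, 65261850 to 65335670), the large loader subunit, stood at 3.74, 3.39, 2.52 and 0.956 RPKM in Suz12-KO cells, against 2.63, 2.76, 2.14 and 1.64 RPKM in WT cells. Suz12-KO cells were above WT at 0 h and below it at 72 h, with intervals of 0.807 to 1.12 and 1.45 to 1.85 RPKM at that time. The averaged 72 h change was -1.48 (SE 0.198, adjusted p = 0.00157).
Rfc2 (ENSMUSG00000023104, chromosome 5, 134581366 to 134601805), a small loader subunit, was the most abundant one, at 23.5, 28.0, 28.1 and 24.0 RPKM in Suz12-KO cells, against 16.7, 23.1, 27.1 and 24.3 RPKM in WT cells. The ranges of the lines overlapped. Its 72 h change was -0.23 (adjusted p = 0.155), and above 0 as deposited (0.28, adjusted p = 0.171) and with protein-coding factors (0.04). Rfc5 fell by 1.24 and Rfc4 by 0.46, while Rfc3 gave 0.07 (adjusted p = 0.733). Within the loader the ratio of the most to the least abundant subunit was 6.29 at 0 h and 25.1 at 72 h in Suz12-KO cells, and 6.69 and 14.8 in WT cells.

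All 6 polymerase and primase genes were called lower at 72 h, but as deposited only Pola1 and Pold1 were, and with protein-coding factors Pola1, Pold1 and Prim1. Pola1 (ENSMUSG00000006678, chromosome X, 93304767 to 93632155), the catalytic subunit of the polymerase that starts each new strand, stood at 2.33, 1.84, 1.22 and 0.431 RPKM in Suz12-KO cells, against 1.91, 1.60, 1.14 and 0.859 RPKM in WT cells. It was lower at each later time in both lines and lowest in Suz12-KO cells at 72 h, at 0.349 to 0.526 RPKM by counting error against 0.744 to 0.986 RPKM in WT cells. The averaged change was -1.61 (SE 0.171, adjusted p = 0.000736), a 3.05-fold fall of scaled RPKM + 0.5. At such low levels the added 0.5 makes the fall look smaller. Without it the scaled log2 ratio of 72 over 0 h was -2.86 for the Suz12-KO line, against -1.78 for WT.
Its partner Pola2 (ENSMUSG00000024833, chromosome 19, 5940542 to 5964202), the accessory subunit, was far more abundant and moved less. It stood at 17.1, 21.0, 19.5 and 16.2 RPKM in Suz12-KO cells, against 15.4, 16.5, 17.0 and 15.2 RPKM in WT cells. The 72 h change was -0.56 (SE 0.103, adjusted p = 0.00499), and -0.05 (adjusted p = 0.752) as deposited. The catalytic subunits of the leading and lagging strand polymerases, Pole and Pold1, fell by 0.61 and 1.08, and the primase subunits Prim1 and Prim2 by 0.86 and 0.60.

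Replication protein A, which coats single-stranded DNA, fell in all 3 subunits, of which Rpa2 alone was called on both other scales. Rpa1 (ENSMUSG00000000751, chromosome 11, 75298166 to 75348324), the large DNA-binding subunit, stood at 21.9, 37.6, 21.9 and 16.7 RPKM in Suz12-KO cells, against 19.4, 44.3, 30.4 and 22.9 RPKM in WT cells. It had its highest level at 24 h in both lines, on the deposited and the scaled values, but the 24 h change of 0.48 missed the threshold (adjusted p = 0.0748). On scaled values Suz12-KO cells were lower at all 4 times, and the averaged difference between the lines was -0.44 (adjusted p = 0.0756). The 72 h change was -0.59 (SE 0.155, adjusted p = 0.0193), and -0.07 (adjusted p = 0.748) as deposited.
Rpa2 (ENSMUSG00000028884, chromosome 4, 132768332 to 132778752), the subunit phosphorylated at stalled forks, stood at 15.6, 14.5, 13.1 and 9.05 RPKM in Suz12-KO cells, against 12.8, 12.0, 13.3 and 9.86 RPKM in WT cells. Both lines had their lowest level at 72 h. That change was -1.07 (SE 0.108, adjusted p = 0.000642), and Rpa3 fell by 0.47.

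Both genes for the joining of Okazaki fragments fell. Fen1 (ENSMUSG00000024742, chromosome 19, 10199132 to 10204169), the nuclease that trims their flaps, stood at 17.4, 18.6, 20.1 and 15.2 RPKM in Suz12-KO cells, against 12.5, 15.0, 17.2 and 15.3 RPKM in WT cells. Its fall of 0.46 (SE 0.112, adjusted p = 0.0140) was a change of 0.05 as deposited (adjusted p = 0.804). An antisense gene, Gm10143, shares 78.8% of its exon bases.
Lig1 (ENSMUSG00000056394, chromosome 7, 13277283 to 13311433), the ligase that seals the fragments, stood at 15.3, 22.5, 14.9 and 9.82 RPKM in Suz12-KO cells, against 11.2, 14.1, 12.2 and 9.36 RPKM in WT cells. Both lines were highest at 24 h and lowest at 72 h as deposited. Its change at 72 h was -0.93 (SE 0.121, adjusted p = 0.00142), with adjusted p = 0.0592 as deposited.

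The 2 subunits of ribonucleotide reductase, the enzyme that makes deoxynucleotides, took different courses. Rrm1 (ENSMUSG00000030978, chromosome 7, 102441695 to 102469771), the large subunit, stood at 35.2, 43.9, 50.6 and 42.2 RPKM in Suz12-KO cells, against 23.5, 32.0, 38.3 and 43.0 RPKM in WT cells. Its averaged 72 h change was 0.04 (SE 0.132, adjusted p = 0.808) on the scaled values and 0.56 (adjusted p = 0.0293) as deposited.
Rrm2 (ENSMUSG00000020649, chromosome 12, 24708241 to 24714146), the small subunit whose protein is known to be limited to S phase, stood at 33.3, 25.6, 23.5 and 24.2 RPKM in Suz12-KO cells, against 21.3, 17.9, 14.7 and 16.4 RPKM in WT cells. It fell by 0.80 at 24 h (adjusted p = 0.00934) and by 0.92 at 72 h (SE 0.117, adjusted p = 0.00132). Suz12-KO cells were higher at all 4 times, with an averaged difference of 0.39 (adjusted p = 0.0538). The ratio of Rrm1 to Rrm2 was 1.06, 1.71, 2.15 and 1.74 in Suz12-KO cells, against 1.11, 1.78, 2.62 and 2.63 in WT cells. Tyms, which makes thymidylate, fell by 0.40, a call lost on both other scales, and is also annotated with a pseudogene.
The 250 bases before the Rrm1 start hold none of the E2F letters searched but have 2 CCAAT boxes, in capitals. They are shown as 1 case of a replication gene not called lower at 72 h. The others not called lower were Cdc6, Gins3 and Rfc3, which hold E2F letters, and Gins2 and Rfc2, which had no window.
Rrm1 promoter, chr7:102441445-102441694, plus strand: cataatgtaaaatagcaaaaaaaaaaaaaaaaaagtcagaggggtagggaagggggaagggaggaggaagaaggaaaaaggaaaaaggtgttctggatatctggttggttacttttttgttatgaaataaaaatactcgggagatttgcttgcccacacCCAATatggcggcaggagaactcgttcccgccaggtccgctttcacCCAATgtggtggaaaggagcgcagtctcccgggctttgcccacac

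Genes with and without the E2F letters overlapped in their changes. The 13 genes with E2F letters had a median 72 h change of -0.93, and 10 of them were called lower. The 20 genes without them had a median of -0.77, and 19 of them were called lower. Changes ran from -1.81 to 0.07 with the letters and from -1.56 to 0.04 without them.

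Between the lines, 3 replication genes differed on average over the times. Suz12-KO minus WT averaged over the 4 times gave 3 members higher (3.18% of kept genes were called higher) and 0 lower (2.41%), with a median of -0.00. At an unadjusted p under 0.05 limma had 7 higher (12.8% of kept genes) and 3 lower (11.2%). Gins2 differed by 0.80 (SE 0.124, limma adjusted p = 0.0253), Orc6 by 0.50 (SE 0.0848, adjusted p = 0.0318) and Gins3 by 0.43 (SE 0.0764, adjusted p = 0.0352). Each was higher in Suz12-KO cells at 4 of 4 times. These p values rest on the evenness of a difference across times within the 2 lines. Of the 3 calls, 0 remained without the filter on low values, where 0.241% of genes were called higher. Likewise 0 remained without the 24 h columns (0.479% of kept genes called higher) or without the 48 h columns (0.166%). There the differences were 0.77 and 0.79 for Gins2, 0.53 and 0.49 for Orc6 and 0.43 and 0.45 for Gins3. Gins2 alone of the 3 stayed past the threshold without the 0 h columns (2.6% of kept genes called higher) or the 72 h columns (0.672%).

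**Figure D4:**
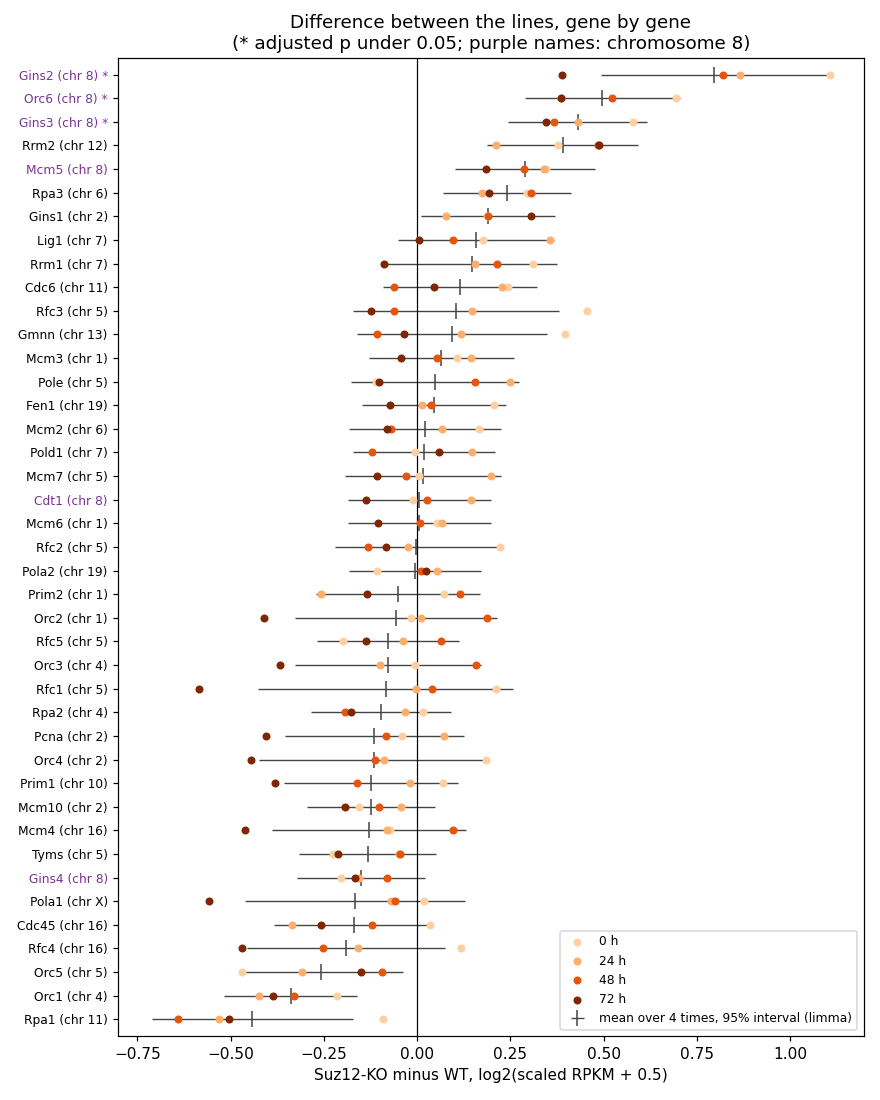
Suz12-KO minus WT (horizontal axis, log2 of scaled RPKM + 0.5) for each of the 41 genes (vertical axis) at 0, 24, 48 and 72 h (points), with the limma mean over the times and its 95% interval (bars). Gins2, Orc6 and Gins3 are starred and lie above 0 at every time, while the means of all 41 genes run from -0.44 (Rpa1) to 0.80 (Gins2).

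All 3 genes that differed lie on chromosome 8, where other genes were higher in Suz12-KO cells too. Over 549 kept protein-coding genes of chromosome 8 the median of Suz12-KO minus WT was 0.28, and 18.9% were called higher. Chromosome 14, with 351 such genes and 0 replication genes, had a median of 0.25 and 16.8% called higher. The medians of the other 18 chromosomes ran from -0.03 to 0.02, with 1.92% called higher. On chromosome 8 the median was 0.20, 0.30, 0.29 and 0.27 at 0, 24, 48 and 72 h. With the median of each chromosome subtracted, an alternative chosen after seeing these values, Gins2 differed by 0.54 (adjusted p = 0.0984), Orc6 by 0.24 (adjusted p = 0.229) and Gins3 by 0.17 (adjusted p = 0.318). The 3 other members on chromosome 8 gave 0.29 (Mcm5), 0.01 (Cdt1) and -0.15 (Gins4).

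At single times the lines were close, with medians of Suz12-KO minus WT over the 41 genes of 0.07, 0.05, 0.01 and -0.12 at 0, 24, 48 and 72 h. Of the 41 genes, only Gins2 was at least 2-fold apart on scaled values, by 1.11 at 0 h, where 3.18% of kept genes were at least 2-fold higher and 2.15% were 2-fold lower. At 24, 48 and 72 h 0 members were, where 2.03%, 1.69% and 2.46% of kept genes were 2-fold higher and 2.08%, 2.99% and 3.01% 2-fold lower. As deposited the medians were 0.31, 0.34, 0.19 and -0.07. On scaled values 15 of 41 members were lower in Suz12-KO cells at 0 h and 30 at 72 h, where 51.9% and 51.6% of kept genes were. As deposited these were 1 and 28 members, where 25.8% and 44.5% of kept genes were.

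The 72 h change was the more negative one in Suz12-KO cells for 32 of 41 members, where 48.4% of kept genes had it so, with a median difference of -0.21. This comparison rests on 1 column for each line and time and was not tested. The widest gaps were in Rfc1 (-1.88 in Suz12-KO cells, against -1.08 in WT cells), Gins2 (-0.64 and 0.08) and Orc4 (-0.86 and -0.23). Next came Rfc4 (-0.75 and -0.16), Rfc3 (-0.22 and 0.36) and Pola1 (-1.89 and -1.32). This order rests in part on the added 0.5. Without it the log2 ratios were -2.86 and -1.78 for Pola1 and -2.39 and -1.31 for Rfc1. They were -1.38 and -0.35 for Orc4 and -0.69 and 0.09 for Gins2. Orc5 went the other way, with -0.99 in Suz12-KO cells, against -1.31 in WT cells. Across the 41 genes the changes of the 2 lines, which share no column, had a Spearman rho of 0.87, given as a description since genes are not independent replicates.

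Of 78 other genes of the pathway that were listed beside the members, 74 were kept, and at 72 h 49 of them were called lower and 8 higher (28.9% and 29.7% of all kept genes). Origin firing genes fell in 6 of 7 cases, fork protection and checkpoint genes in 8 of 10, and chromatin assembly genes in 6 of 9. Dbf4, the activator of the Cdc7 kinase, stood at 5.44, 5.21, 3.20 and 1.59 RPKM in Suz12-KO cells, against 4.16, 4.16, 2.70 and 2.34 RPKM in WT cells, a fall of 1.57 (adjusted p = 0.000735). Ticrr, which brings Cdc45 to origins, fell by 1.52 and Shmt1, a one-carbon enzyme of thymidylate synthesis, by 1.81. Among G1-S regulators 10 fell and 4 rose. The activators E2f1 and E2f2 and the cyclin E gene Ccne1 fell by 0.97, 0.96 and 1.29.
The largest rises were in inhibitors of the cycle. Cdkn1a, the p21 inhibitor of cyclin-dependent kinases, stood at 1.22, 3.66, 8.76 and 27.1 RPKM in Suz12-KO cells, against 1.85, 3.35, 4.04 and 14.2 RPKM in WT cells, a rise of 2.89 (SE 0.391, adjusted p = 0.00164). Cdkn1c, the p57 inhibitor, stood at 1.05, 9.07, 17.7 and 26.4 RPKM in Suz12-KO cells, against 4.09, 13.8, 22.3 and 27.8 RPKM in WT cells, a rise of 2.92 (SE 0.384, adjusted p = 0.00150). E2f6, a repressor of the E2F family, rose by 1.11 (adjusted p = 0.000605). Between the lines Wdhd1, a fork protein on chromosome 14, was higher in Suz12-KO cells by 0.44 (adjusted p = 0.0283) and E2f4, on chromosome 8, by 0.49 (adjusted p = 0.0329).

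Mitosis genes, listed for comparison, also fell, with 25 of 29 kept genes called lower at 72 h and a median of -0.74, beside 35 of 41 and -0.78 for the replication genes. In bulk RNA, fewer cells of a type and less RNA per cell cannot be told apart. Markers of cell types moved over the same times. Summed scaled RPKM of 12 stem cell markers was 776, 367, 81.2 and 24.0 in Suz12-KO cells, against 708, 362, 66.1 and 14.6 in WT cells. Of these 12, 7 had at least 1 RPKM at 72 h in Suz12-KO cells, against 3 in WT cells, against all 12 at 0 h in both lines. The 15 endoderm markers summed to 37.6, 36.0, 166 and 349 in Suz12-KO cells, against 19.2, 17.8, 50.8 and 82.5 in WT cells, with Ttr and Afp at 0 in both lines at 0 h. At least 1 RPKM at 72 h was seen for 11 of 15 in Suz12-KO cells, against 9 in WT cells. Sparc, Lamb1 and Col4a1 made up 68.9% and 75.4% of the 72 h sums, and Hnf4a, Afp and Apoa1 never reached 1 RPKM. The 10 mesoderm markers summed to 0.687 and 303 at 0 and 72 h in Suz12-KO cells, against 1.67 and 268 in WT cells. At 72 h 4 of the 10 in Suz12-KO cells, against 3 in WT cells, had at least 1 RPKM, and Tagln and Acta2 made up 98.8% and 98.4% of the sums, while T, Mesp1, Tbx6, Kdr, Hand1 and Msgn1 never reached 1 RPKM. The 9 trophoblast markers summed to 6.48 and 323 in Suz12-KO cells, against 7.91 and 355 in WT cells. The keratin genes Krt18 and Krt8 made up 98.8% and 98.4% of the 72 h sums, 4 of the 9 had at least 1 RPKM in each line, and Cdx2, Eomes, Elf5 and Hand1 reached it in no column. Neural markers went from 15.9 at 0 h to 7.0 at 72 h in Suz12-KO cells and from 17.2 to 9.46 in WT cells. Fibroblast markers rose from 1.42 to 15.3 in Suz12-KO cells and from 3.20 to 13.2 in WT cells. Of the 10 fibroblast markers, 5 and 6 had at least 1 RPKM at 72 h. The part of these shifts in the replication genes was not tested.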

How the data were processed

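Total RNA depleted of ribosomal RNA was fragmented and sequenced. The authors deposited RPKM for 24452 genes, with 1 pooled column for each of 8 groups (16 samples), and TRUE or FALSE marks of genes that differ between 72 and 0 h; the labels give no threshold for them. The submitters' processing notes name TopHat, featureCounts, DESeq2 and GRCm38, and the genes carry Ensembl release 72 IDs. Whole reads (tolerance 0.001) were recovered from the steps of the RPKM values and used for exact 95% Poisson intervals, never for a test. Genes with at least 1 RPKM in at least 1 column were kept (10860). RPKM were divided by median-of-ratios factors, log2(scaled RPKM + 0.5) was taken, and limma 3.58.1 (R 4.3.3) fitted line plus time to the 8 columns, with trended empirical Bayes and Benjamini-Hochberg adjustment over all kept genes at 0.05. That fit has 3 residual degrees of freedom and no replicate within a group. Members and gene lists were chosen with earlier results of these data known. Every column is given for members that differ between the lines and, in each role, for the most abundant and the most changed member (Pcna, the Orc4 range, E2f1, E2f2 and Ccne1 were added after their values were seen); for other pathway genes, for the largest falls and rises the authors marked and those that differ between the lines. Alternatives were other scalings, pseudocounts, filters, folds and left-out times.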

Additional observations from a re-analysis of the deposited data

Results flagged for a closer look

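On scaled values 4 replication genes were lower at 72 h than at 0 h in Suz12-KO cells and higher in WT cells, and in 2 of them, Rfc3 and Rrm1, the counting intervals of both changes left out 0. The other two were Gins2 (-0.64 and 0.08) and Gins3 (-0.20 and 0.03). Rfc3, a small subunit of the clamp loader, stood at 4.28, 5.45, 5.37 and 4.84 RPKM in Suz12-KO cells at 0, 24, 48 and 72 h, against 2.50, 3.95, 4.95 and 5.09 RPKM in WT cells. Its scaled log2 change was -0.22 in the Suz12-KO line and 0.36 in the WT line, a gap of -0.58. Rrm1, the large subunit of ribonucleotide reductase, changed by -0.16 in the Suz12-KO line and 0.24 in the WT line, a gap of -0.40. By counting error alone the 95% intervals of the 72 over 0 h log2 ratio ran from -0.44 to -0.05 in the Suz12-KO line and from 0.17 to 0.63 in the WT line for Rfc3, and from -0.22 to -0.10 in the Suz12-KO line and from 0.17 to 0.32 in the WT line for Rrm1. The opposite directions rest on the scaling. As deposited Rfc3 changed by 0.16 in the Suz12-KO line and 0.90 in the WT line, and Rrm1 by 0.26 and 0.86. With protein-coding factors Rfc3 gave 0.0061 and 0.64 and Rrm1 0.087 and 0.56. The difference between the lines was not tested, since each line has 1 column per time.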

How the results depend on the processing

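No paired analysis was possible because each group has 1 pooled column without replicate numbers, and no replicate could be left out. With RPKM as deposited, members called higher between the lines were 7 (3 with scaling; 10.5% and 3.18% of kept genes) with a median of 0.20, where kept genes had medians of 0.17, 0.25, 0.15 and 0.04 at 0, 24, 48 and 72 h. That scale gave 7 higher (37.2%) and 1 lower (3.55%) with a median of 0.25 at 24 h, 6 higher (46.9%) and 7 lower (7.65%) with 0.063 at 48 h, and 1 higher and 16 lower with -0.34 at 72 h (46% and 12.2%). Within the lines 7 members were at least 2-fold lower at 72 h in Suz12-KO cells (median -0.45) and 1 in WT cells (median -0.062). Medians of Suz12-KO minus WT were 0.31, 0.34 and 0.19 at 0, 24 and 48 h, with 1 member 2-fold apart at 24 h. Rfc2 (0.28), Fen1 (0.046), Gins2 (0.18) and Gins3 (0.35) turned positive at 72 h. With factors from protein-coding genes, 1 was higher (16.9%) and 6 lower (7.37%) at 24 h (median -0.072), 16 lower (15.3%) at 48 h (median -0.24), the 72 h median was -0.54, and Rfc2 (0.044) and Gins3 (0.15) turned positive; 8 members in Suz12-KO cells (median -0.62) and 4 in WT cells (-0.33) were at least 2-fold lower. A pseudocount of 0.1 gave a 72 h median of -0.89. At a 1.5-fold threshold 31 and 25 members were lower at 72 h in Suz12-KO and WT cells (25.1% and 22.5% of kept genes). Members called higher between the lines were 0 without the filter (0.241% of genes), without the 24 h columns (0.479%) and without the 48 h columns (0.166%). With chromosome medians subtracted 0 were higher (1.55%) and 1 lower (2.01%). Without the 72 h columns 1 was higher (0.672%), and without the 0 h columns 1 was higher (2.6%) and 1 lower (2.45%). The left-out times also leave fewer columns and residual degrees of freedom. Of the comparisons' counts and medians under the alternatives, 113 stayed within 1.5-fold of the main count or within 0.1 of the main median. Another 38 moved further and 2 reversed. Counting intervals show the limit of depth; the spread between cultures could not be computed.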
